A study of Mus musculus with 6 samples.

Results

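The genes described here build and police the attachment of chromosomes to the mitotic spindle in RAW264.7, a mouse monocyte and macrophage leukaemia line used as a model macrophage. They were chosen by name: every row whose Ensembl identifier carries a symbol starting with Cenp, plus a fixed set of outer kinetochore, Ska, checkpoint, chromosomal passenger and shugoshin genes. The rule found 49 genes among the 16665 rows of the expression table. They comprised 17 genes of CENP-A and the inner kinetochore, 4 other CENP genes, 10 of the KMN network, 3 of the Ska complex, 8 of the spindle checkpoint, and 7 made up of the passenger complex, Plk1 and the shugoshins.

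The series title sets out to follow miR-125b in atherosclerosis and pyroptosis. Cells were transfected with a miR-125b mimic (3 samples, genotype given as miR-125b overexpression) or with a negative control (NC, 3 samples, genotype given as miR-125b WT), and both groups carry the same transfection label. The labels give no dose, no time after transfection and no arm of the miRNA, and the miRNA itself was not measured in these mRNA libraries. Nothing in them says that the 3 samples of a group were separate cultures, so each p-value reflects sample-to-sample spread that may be technical only.

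The arm best known as miR-125b is the 5p arm, which RefSeq places on the plus strand at chr9:41581940-41581961 and at chr16:77646279-77646300 (GRCm38.p6). It is printed because its seed (bases 2 to 8, in capitals) defines the sites searched among these genes further on.
miR-125b-5p: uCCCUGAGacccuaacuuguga

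In mitosis a kinetochore is assembled on each centromere, where the histone variant CENP-A marks the chromatin. The constitutive centromere-associated network binds CENP-A through Cenpc1 and Cenpn and carries the KMN network (Knl1, the Mis12 complex and the Ndc80 complex), whose Ndc80 complex holds spindle microtubules. Kinetochores without microtubules recruit Ttk, the Bub proteins, Mad1l1 and Mad2l1, which keep the anaphase-promoting complex inactive, while Aurora B kinase (Aurkb) releases faulty attachments. Most of these mRNAs are known to peak in G2 and mitosis, and in a bulk sample fewer dividing cells and less mRNA per cell cannot be told apart.

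Depth recovered from the table lay between 14.45 and 16.81 M fragments per library. NC 3 stood apart: 3399 genes were at 0 in it, against 1195 to 1524 in the other 5 libraries. All 12 macrophage markers were in the table, 11 of them above the filter (Mrc1 was below it), and their summed level was 7371 to 8901 FPKM (fragments per kilobase of exon, scaled to depth) in NC and 6587 to 6861 FPKM in the mimic libraries. These sums did not overlap, but Lyz2 made up 86.8% to 88.4% of them. Singly, Lyz2 and Tyrobp were lower and Ptprc higher without overlap, and the other 8 tested markers overlapped between groups. Their part in the results was not tested. Their median log2 fold change was −0.11 (2 of the 11 tested higher, 9 lower). Markers of fibroblasts summed to at most 0.197 FPKM, those of lymphocytes to at most 0.532 and those of epithelium and endothelium to at most 0.102. Of these 3 lists, 4 of 6, 5 of 7 and 5 of 7 markers were not listed in the table, among them Cdh1, Epcam, Krt8, Krt18 and Cdh5.

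All 49 genes passed the filter (mean of at least 1 FPKM over the 6 samples), so none was left out of the test. Their mean levels ran from 1.51 FPKM for Cenpo to 121 FPKM for Bub1, with a median of 9.31 FPKM beside 7.45 FPKM for all 10166 genes tested. After Bub1 came Cenpa at 49.6 FPKM, Bub1b at 43.0, Cenpx at 39.1 and Aurkb at 38.8 FPKM, and the libraries' values of the last 4 overlapped. At the bottom, Cenpo, Cenpu, Cenpj and Cenpt lay between 1.51 and 1.99 FPKM and likewise overlapped over the libraries. The least covered gene and library, Cenps, rested on 46 fragments, and over the 49 genes the median of the lowest library's count was 366 fragments.

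No kinetochore or checkpoint gene passed the test of mimic against NC (limma on log2(FPKM + 1), adjusted p under 0.05), where 0 of 10166 genes (0.0%) passed. The voom test on recovered fragments also passed 0. Of the 49, 34 were higher and 15 lower in the mimic samples, 69.4% higher beside 56.3% of all genes tested. The median log2 fold change of the 49 was 0.11, beside 0.041 over all genes. At an unadjusted p under 0.05, 4 were higher (Knl1, Kntc1, Sgo2a and Ndc80, 8.16% of the 49, beside 7.96% of all genes) and 2 lower (Cenpb and Pmf1, 4.08%, beside 5.26%). The same 4 genes had every mimic library above every NC library, 8.16% beside 12.6% of all genes. Cenpb, Pmf1 and Cenpt had every mimic library below every NC library, 6.12% beside 7.49%. These shares lay near or under the background, so the counts are no result particular to these genes. The labels do not say whether the replicate numbers pair the libraries. With the replicate number as a block, the lower genes at unadjusted p under 0.05 went from 2 to 7 (14.3%, beside 7.28% of all genes). The higher ones stayed at 4 (8.16%, beside 9.27%). The 7 were Cenpb, Pmf1, Cenpm, Cenpx, Cenpv, Spc24 and Aurkb. The block was then joined with the removal of a trend on transcript length and GC, described below. That left 1 lower (2.04%) and 4 higher (8.16%) at unadjusted p under 0.05, beside 522 lower and 866 higher of 10128 genes.

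NC 3 and mimic 3 often lay apart from the other libraries of their groups. NC 3 lay nearer to the mimic mean than to the mean of NC 1 and NC 2 in 37 of the 49 genes (75.5%, beside 65.7% of all genes). Mimic 3 was below both other mimic libraries in 44 of 49 (89.8%, beside 53.3% of all genes), and it was the lowest of all 6 libraries in 20 (40.8%, beside 16.7%). The low mimic 3 was not particular to these genes. Among the mitotic entry and proliferation genes described further on, mimic 3 was below mimic 1 and mimic 2 in all tested but Cdc25c and Bora. Within the first 2 replicates the mimic libraries were both above both NC libraries in 30 of 49 genes (61.2%, beside 39.7%) and both below in 12 (24.5%, beside 34.6%). In replicate 3 the mimic library was above its NC in 15 of 49 (30.6%, beside 57.1%). Both patterns together, higher in replicates 1 and 2 and lower in replicate 3, were in 22 of 49 (44.9%, beside 17.9% of all genes), and 8 were higher in all 3 (16.3%, beside 21.8%).

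With NC 3 left out, 9 of the 49 passed as higher (18.4%, beside 11.6% of all genes) and 7 as lower (14.3%, beside 12.2%). The higher genes were Knl1, Kntc1, Sgo2a, Ndc80, Cenpf, Cenpc1, Cenpk, Cenpp and Bub1, and the lower ones Cenpb, Pmf1, Aurkb, Cenpm, Cenpv, Cenpx and Mad1l1. With NC 3 and mimic 3 left out, an alternative chosen after seeing the data, 21 passed as higher (42.9%, beside 23.1% of all genes) and 9 as lower (18.4%, beside 19.9%). The median log2 fold change of the 49 was then 0.20, beside 0.021 over all genes. With mimic 3 alone left out, the median was 0.24, beside 0.066 over all genes, and 0 genes passed.

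**Figure D1:**
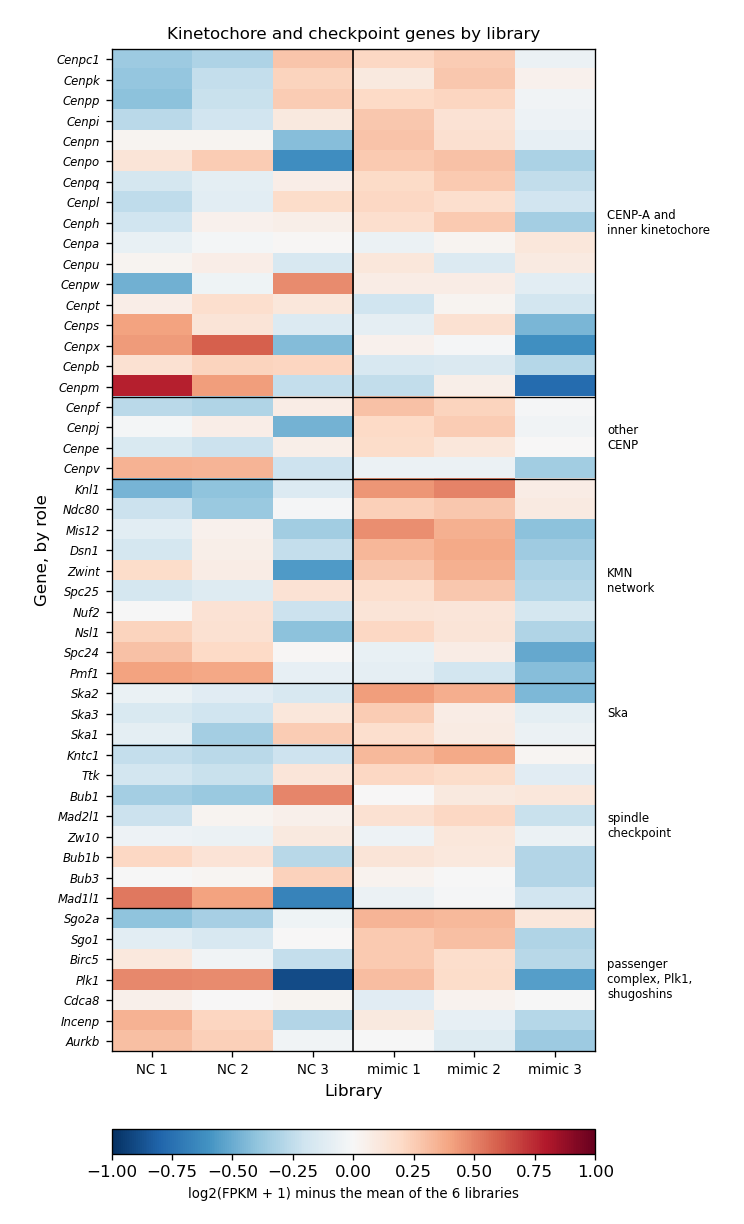
Each row is 1 of the 49 genes, grouped by role, and each column 1 library; colour is log2(FPKM + 1) minus the mean of the 6 libraries (red higher, blue lower). Mimic 1 and mimic 2 are red in most rows, mimic 3 is below both of them in 44 of 49 rows, and NC 3 differs from NC 1 and NC 2 in many.

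Fold changes varied with the base composition of the transcripts. All 22 members whose longest transcript holds under 45% GC were higher in the mimic samples, as were 84.5% of the 2884 tested genes below that bound. Of the 13 members above 50% GC, 12 were lower, as were 66.5% of the 4507 tested genes above it. These bounds were chosen after seeing the values. The median GC of the higher members was 43.0% and that of the lower members 54.7%, beside 49.0% for all genes. With a trend on transcript length and GC removed from each library, the median log2 fold change of the 49 fell from 0.11 to 0.036, 30 were higher and 19 lower, and 0 passed. Over all genes the median was then 0.028, and 56.2% were higher, beside 61.2% of the 49. The fold change was smaller in size for 41 of the 49. With the trend removed and NC 3 left out, 0 passed as higher (beside 0.681% of all genes) and 1, Pmf1, as lower (beside 2.06%). What part of the differences length and GC account for was not tested.

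**Figure D2:**
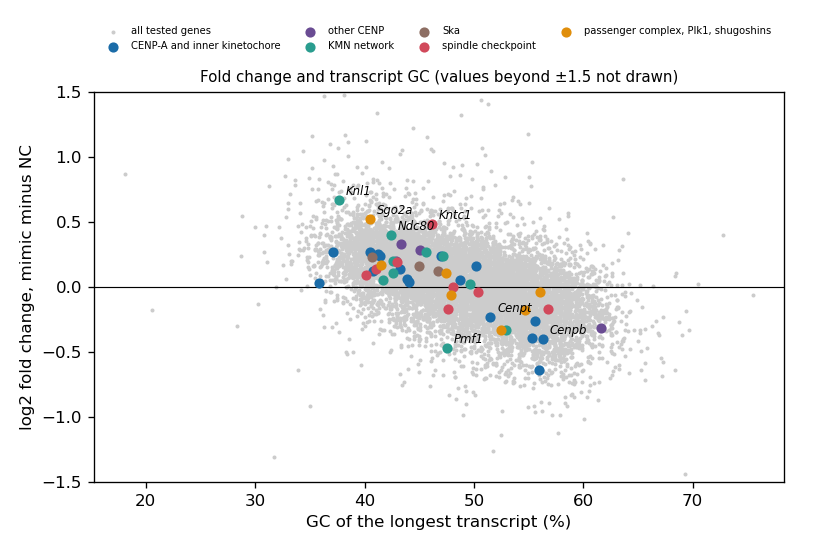
Log2 fold change (mimic minus NC, vertical) against the GC content of the longest transcript (horizontal, %), for all tested genes in grey and the 49 members in colour by role. Members under 45% GC all lie above 0, and 12 of the 13 above 50% GC lie below it.

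The promoters of the 4 genes with the smallest p among those holding a cell cycle homology region motif (CHR: TTTGAA or TTTAAA) are printed next. The CHR is bound by the MuvB complexes that hold G2 and mitosis genes off in resting cells and switch them on in dividing ones, often with a CCAAT box bound by NF-Y. Sequences are from RefSeq (GRCm38.p6), 250 bases before to 50 after the annotated start and read along the gene, with CHR and CCAAT motifs or their reverse complements in capitals.
Knl1 promoter, chr2:119046869-119047168, plus strand: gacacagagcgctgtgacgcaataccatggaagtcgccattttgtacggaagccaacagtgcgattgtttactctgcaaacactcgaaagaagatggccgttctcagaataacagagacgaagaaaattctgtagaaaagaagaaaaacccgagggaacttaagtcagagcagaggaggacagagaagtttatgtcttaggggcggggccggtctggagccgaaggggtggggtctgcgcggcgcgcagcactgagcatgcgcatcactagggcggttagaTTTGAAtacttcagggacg
Kntc1 promoter, chr5:123749476-123749775, plus strand: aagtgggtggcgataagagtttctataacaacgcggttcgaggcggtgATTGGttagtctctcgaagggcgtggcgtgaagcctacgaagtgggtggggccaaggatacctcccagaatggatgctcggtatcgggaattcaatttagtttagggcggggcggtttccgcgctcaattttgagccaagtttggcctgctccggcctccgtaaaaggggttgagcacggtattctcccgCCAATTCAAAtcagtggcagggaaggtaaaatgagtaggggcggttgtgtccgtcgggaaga
Ndc80 promoter, chr17:71526808-71527107, minus strand: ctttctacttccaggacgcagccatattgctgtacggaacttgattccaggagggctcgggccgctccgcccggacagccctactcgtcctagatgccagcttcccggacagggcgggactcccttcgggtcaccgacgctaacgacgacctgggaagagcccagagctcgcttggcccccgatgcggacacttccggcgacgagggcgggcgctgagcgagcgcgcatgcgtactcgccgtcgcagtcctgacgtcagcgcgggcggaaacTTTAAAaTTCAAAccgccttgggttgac
Pmf1 promoter, chr3:88410348-88410647, minus strand: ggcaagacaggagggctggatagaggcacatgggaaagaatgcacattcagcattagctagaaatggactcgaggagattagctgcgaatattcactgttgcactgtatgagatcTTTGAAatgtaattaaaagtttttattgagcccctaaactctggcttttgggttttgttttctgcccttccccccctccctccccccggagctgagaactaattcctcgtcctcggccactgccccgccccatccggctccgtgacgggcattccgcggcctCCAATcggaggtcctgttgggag
The Knl1 window holds a single TTTGAA, 31 bases after the start. In Kntc1 a reverse TTTGAA shares 1 base with a CCAAT just before the start. Ndc80 holds TTTAAA and a reverse TTTGAA 22 and 29 bases after the start. Pmf1, the 1 gene of the 4 that was lower in the mimic samples, holds TTTGAA at −135 and CCAAT at 27 bases from the start.

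Of the 49 genes, 44 had a promoter in that table. A CHR motif on either strand was in 22 of them (50%), beside 22.1% of the 7761 tested genes with a promoter and 30.6% of all 27025 genes with a promoter. A CHR and a CCAAT together were in 16 (36.4%, beside 9.1% of tested genes and 12.2% of all genes with a promoter). CCAAT, with or without a CHR, was in 28 (63.6%, beside 43.7% and 41.1%). For the E2F motifs, TTCCCGC was in 12 (27.3%, beside 10.4% and 5.29%) and TTGGCGC in 2 (4.55%, beside 5.46% and 2.85%). These are matches of letters on both strands, not measured binding.

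Of the KMN genes 8 of 10 were higher in the mimic samples, and their median was 0.15 on the log2 scale. With 1 library left out this ran from 0.038 (without mimic 2, 5 of 10 higher) to 0.34 (without mimic 3). It was 0.070 with 5 of 10 higher without NC 3, and 0.066 with 6 of 10 higher once the trend was removed. Knl1 is the scaffold whose phosphorylated repeats recruit the Bub proteins (ENSMUSG00000027326, chr2:119047119-119105501). It stood at 7.05, 7.44 and 9.11 FPKM in NC 1, 2 and 3 and at 14.1, 14.7 and 10.7 FPKM in mimic 1, 2 and 3. The groups did not overlap, and NC 3 and mimic 3 were the libraries nearest each other. The means were 7.87 ± 1.10 and 13.2 ± 2.12 FPKM (SD, n = 3), a log2 fold change of 0.67 (SE 0.16, adjusted p = 0.332). Without NC 3 it was 0.77 with an adjusted p of 0.0133, and 0.36 once the trend was removed. Its longest transcript has 37.7% GC.

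Ndc80 is the microtubule-binding subunit that names its complex. It stood at 7.80, 6.87 and 9.08 FPKM in NC and at 11.0, 11.3 and 9.86 FPKM in the mimic libraries, without overlap. Its log2 fold change was 0.40 (SE 0.13, adjusted p = 0.332), 0.49 without NC 3 (adjusted p = 0.0191) and 0.26 with the trend removed. Nuf2, its direct partner at the microtubule-binding end, had close to equal levels. It was at 12.2, 13.6 and 10.4 FPKM in NC and 13.5, 13.4 and 10.7 FPKM in the mimic libraries, overlapping (log2 fold change 0.05, SE 0.15, adjusted p = 0.903). Whether Ndc80 and Nuf2 differed in their change was not tested.

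Spc24 and Spc25 form the kinetochore-facing end of the same complex. Spc24 was at 5.11, 4.72 and 4.02 FPKM in NC and 3.74, 4.26 and 2.5 FPKM in the mimic libraries. The groups overlapped through NC 3 and mimic 2, and the log2 fold change was −0.33 (SE 0.18, adjusted p = 0.464), −0.14 with the trend removed. Spc25 averaged 9.52 ± 1.33 FPKM in NC and 10.4 ± 2.24 in mimic (SD, n = 3). The mRNAs of the 4 subunits, which act in equal numbers in the protein complex, therefore had log2 fold changes from −0.33 to 0.40, with SEs of 0.13 to 0.18.

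Pmf1 belongs to the Mis12 complex, the bridge from the inner kinetochore to Knl1 and the Ndc80 complex. It was at 12.9, 12.8 and 8.95 FPKM in NC and at 8.89, 8.26 and 6.85 FPKM in the mimic libraries. The groups did not overlap, but NC 3 lay only just above mimic 1. The means were 11.6 ± 2.26 and 8.0 ± 1.05 FPKM (SD, n = 3), with a log2 fold change of −0.47 (SE 0.17, adjusted p = 0.344). Without NC 3 it was −0.63 (adjusted p = 0.0144). Pmf1 was also the 1 gene of the 49 that passed with the trend removed and NC 3 left out, at −0.59 (adjusted p = 0.0388). Its transcript GC, 47.5%, is close to the median of all genes.

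The other Mis12 complex genes were not lower. Mis12 averaged 7.30 ± 1.12 FPKM in NC and 9.31 ± 3.05 in mimic (SD, n = 3), with 11.5 and 10.6 FPKM in mimic 1 and 2 and 5.82 FPKM in mimic 3. Dsn1 had the same shape, with 8.09, 8.37 and 4.63 FPKM in the mimic libraries against 5.39, 6.51 and 5.13 FPKM in NC. Nsl1 averaged 8.45 and 8.54 FPKM in the 2 groups. Zwint, the partner of Knl1 that helps bring in the Rod and Zw10 proteins, averaged 8.20 ± 2.35 and 9.54 ± 2.44 FPKM.

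**Figure D3:**
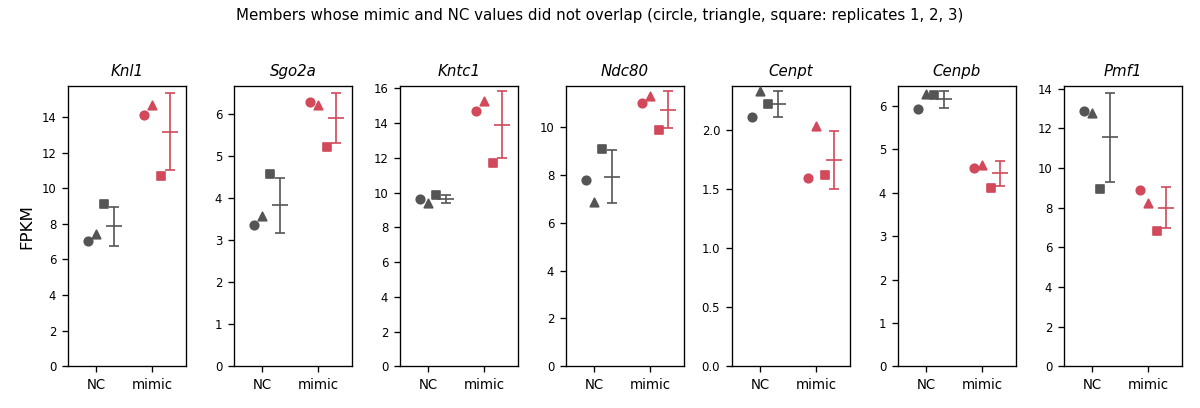
FPKM in each library (circle, triangle and square for replicates 1, 2 and 3) with mean and SD beside them, for the 7 members whose groups did not overlap; vertical axes start at 0. Knl1, Sgo2a, Kntc1 and Ndc80 lie higher in the mimic libraries, and Cenpt, Cenpb and Pmf1 lower.

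The 3 Ska genes, whose complex couples kinetochores to shrinking microtubules, were all higher in the mean, with a median log2 fold change of 0.16 (0.069 without mimic 1, 0.26 without NC 3). Ska3 was at 11.2, 10.8 and 13.7 FPKM in NC and 15.2, 13.3 and 11.7 FPKM in the mimic libraries (log2 fold change 0.16, SE 0.15, adjusted p = 0.657). Ska2 was at 8.70, 8.40 and 8.10 FPKM in NC and 12.6, 12.1 and 6.46 FPKM in the mimic libraries. Mimic 3 was the lowest of the 6 for Ska2 and mimic 1 and 2 the highest, which gave 0.23 (SE 0.23, adjusted p = 0.688). Ska1 averaged 8.98 ± 2.09 and 9.73 ± 0.863 FPKM (SD, n = 3).

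In the spindle checkpoint group 5 of 8 were higher and 3 lower, with a median of 0.047 that turned to −0.019 without mimic 2 and to −0.005 with the trend removed. Kntc1 encodes Rod, which with Zw10 and Zwilch brings Mad1l1, Mad2l1 and dynein to kinetochores (ENSMUSG00000029414, chr5:123749716-123821593). It was at 9.65, 9.39 and 9.85 FPKM in NC and at 14.7, 15.3 and 11.7 FPKM in the mimic libraries. NC varied little here, and every mimic library lay above it. The means were 9.63 ± 0.226 and 13.9 ± 1.96 FPKM (SD, n = 3), a log2 fold change of 0.48 (SE 0.13, adjusted p = 0.332). It was 0.50 without NC 3 (adjusted p = 0.0336) and 0.31 with the trend removed. Its partner Zw10 was level, at 27.0 ± 1.75 FPKM in NC and 27.1 ± 1.88 in mimic (SD, n = 3).

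Bub1, the kinase that scaffolds checkpoint proteins on Knl1 and marks centromeric histone H2A, had the highest level of the 49. It was at 93.6, 91.6 and 167 FPKM in NC and 119, 127 and 128 FPKM in the mimic libraries. NC 3 was the highest and NC 1 and 2 the lowest, with the mimic libraries between them. The log2 fold change was 0.14 (SE 0.23, adjusted p = 0.802), 0.42 without NC 3 (adjusted p = 0.0102) and 0.00 with the trend removed. A single NC library thus decided whether Bub1 passed.

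Bub1b (BubR1, part of the complex that inhibits the anaphase-promoting complex) was at 49.2, 46.9 and 35.0 FPKM in NC. It was at 46.6, 45.9 and 34.5 FPKM in the mimic libraries, close to the NC library of the same number each time. The log2 fold change was −0.04 (SE 0.18, adjusted p = 0.936). Mad2l1, which binds and blocks the anaphase-promoting complex activator, was at 8.12, 9.77 and 10.0 FPKM in NC and 10.8, 11.2 and 8.08 FPKM in the mimic libraries. These overlapped (log2 fold change 0.09, SE 0.16, adjusted p = 0.820), and the value was −0.21 with the trend removed.

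Of the other checkpoint genes, Ttk, the kinase that starts the signal, averaged 12.8 ± 1.86 FPKM in NC and 14.7 ± 1.85 in mimic (SD, n = 3). Bub3 averaged 25.9 ± 2.41 and 23.0 ± 2.91 FPKM. Mad1l1, the kinetochore receptor for Mad2l1, was at 4.01, 3.59 and 1.19 FPKM in NC and 2.33, 2.44 and 2.05 FPKM in the mimic libraries. Here NC 3 was the lowest of the 6, and without it the log2 fold change went from −0.17 to −0.55.

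Of the passenger complex, Plk1 and shugoshin genes, 3 were higher and 4 lower, with a median of −0.041. Its direction was not settled: the median was 0.16 without NC 1, 0.13 without NC 2, 0.22 without mimic 3 and 0.031 with the trend removed. Sgo2a is a shugoshin, a protector of centromeric cohesin best known in mouse from oocyte meiosis (ENSMUSG00000026039, chr1:57995971-58025899). It was at 3.35, 3.56 and 4.57 FPKM in NC and at 6.28, 6.2 and 5.21 FPKM in the mimic libraries, without overlap. The log2 fold change was 0.52 (SE 0.15, adjusted p = 0.332), 0.63 without NC 3 (adjusted p = 0.0134) and 0.29 with the trend removed. Its value is uncertain because 35.0% of its exon bases overlap Kctd18 on the opposite strand and whether fragments were counted by strand is not stated in the labels. Sgo1, the shugoshin of mitotic cells, was at 6.28, 6.01 and 6.85 FPKM in NC and 8.39, 8.65 and 5.34 FPKM in the mimic libraries, with mimic 3 the lowest of the 6.

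Aurkb, the kinase of the passenger complex, was at 47.3, 45.3 and 37.3 FPKM in NC and 38.2, 34.9 and 29.5 FPKM in the mimic libraries. Within every replicate number the mimic library was the lower, though NC 3 lay below mimic 1. The log2 fold change was −0.33 (SE 0.14, adjusted p = 0.384), −0.43 without NC 3 (adjusted p = 0.0386) and −0.15 with the trend removed. Incenp, the scaffold that activates Aurkb, was at 27.3, 24.9 and 17.2 FPKM in NC and 22.8, 20 and 17.3 FPKM in the mimic libraries (log2 fold change −0.18, SE 0.19, adjusted p = 0.695). The 2 targeting subunits were close to level: Birc5 (survivin) averaged 18.3 ± 2.30 and 20 ± 4 FPKM, and Cdca8 (borealin) 21.8 ± 0.366 and 21 ± 1.16 FPKM (SD, n = 3).

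Plk1, a kinase of mitotic entry and kinetochore attachment, had the widest spread of the 49 by its SE. It was at 19.2, 19.1 and 6.77 FPKM in NC and 16.9, 15.4 and 8.90 FPKM in the mimic libraries. NC 3 and mimic 3 were both low. The log2 fold change was −0.04 (SE 0.40, adjusted p = 0.976), −0.50 without NC 3, 0.22 without mimic 3 and 0.16 with the trend removed, so the direction was not settled.

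In the inner kinetochore group 12 of 17 were higher and 5 lower, with a median of 0.059 (0.032 without NC 1, 0.24 without mimic 3). Cenpa, the histone variant that marks the centromere, was at 47.1, 48.8 and 49.8 FPKM in NC and 47.6, 50.4 and 53.6 FPKM in the mimic libraries. It was among the least variable of these genes (log2 fold change 0.05, SE 0.10, adjusted p = 0.834). Cenpb, which binds the CENP-B box of centromeric satellite DNA, was at 5.92, 6.28 and 6.25 FPKM in NC and 4.58, 4.64 and 4.11 FPKM in the mimic libraries. The means were 6.15 ± 0.200 and 4.44 ± 0.287 FPKM (SD, n = 3), and the gap between groups was wider than either group's range. The log2 fold change was −0.40 (SE 0.11, adjusted p = 0.332), −0.38 without NC 3 (adjusted p = 0.0373) and −0.33 with the trend removed.

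Cenpm and Cenpx were lower in the mean with wide spread. Cenpm, a subunit of the network beside Cenph, Cenpi and Cenpk, was at 12.3, 9.34 and 5.55 FPKM in NC and 5.52, 7.08 and 3.54 FPKM in the mimic libraries (log2 fold change −0.64, SE 0.30, adjusted p = 0.411). Cenpx, a small histone-fold protein also used in Fanconi anaemia repair, was at 50.7, 57.1 and 27.4 FPKM in NC and 38.5, 37.1 and 24.1 FPKM in the mimic libraries (log2 fold change −0.39, SE 0.30, adjusted p = 0.580). Both were lowest in mimic 3 and had their lowest NC value in NC 3, and in each replicate number the mimic library was the lower. With the replicate block the unadjusted p went from 0.0716 to 0.00923 for Cenpm and from 0.227 to 0.0239 for Cenpx. Their adjusted p with the block was 0.266 each, and the labels do not state that the numbers mark pairs. Without NC 3 Cenpm had −0.92 (adjusted p = 0.0398) and Cenpx −0.71 (adjusted p = 0.0463). Without mimic 3 they had −0.41 and −0.18, and with the trend removed −0.32 and −0.09. Cenpt, which recruits the Ndc80 complex and binds DNA with Cenpw, Cenps and Cenpx, was at 2.11, 2.33 and 2.22 FPKM in NC and 1.59, 2.03 and 1.62 FPKM in the mimic libraries. Those groups did not overlap, with a log2 fold change of −0.23 (SE 0.14, adjusted p = 0.496).

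The remaining inner kinetochore genes overlapped between groups. Cenpc1, the main link from CENP-A to the Mis12 complex, was at 11.5, 12.0 and 18.5 FPKM in NC and 17.6, 18.2 and 14.5 FPKM in the mimic libraries. As with Bub1, NC 3 was the highest and the other NC libraries the lowest. Cenpp had this shape too, with 6.92 FPKM in NC 3 against 4 and 4.69 FPKM in NC 1 and 2. For Cenpk NC 3 was at 6.26 FPKM, against 3.76 and 4.28 FPKM in NC 1 and 2, and was passed only by mimic 2 at 6.52 FPKM. Mean levels in NC and mimic were 8.59 and 9.12 FPKM for Cenph, 4.64 and 5.66 for Cenpi, 8.14 and 8.93 for Cenpl, 6.15 and 7.43 for Cenpn, and 7.43 and 8.35 for Cenpq. They were 1.39 and 1.63 FPKM for Cenpo, 1.71 and 1.79 for Cenpu, 5.93 and 5.83 for Cenpw, and 2.91 and 2.27 for Cenps. Over 10% of the exon bases of Cenpu, Cenpo, Cenpp and Ska2 are shared with another annotated gene, which can make their values uncertain to unlike degrees. The mean level of that gene was 9.04 FPKM for Cenpu (Primpol) and 2.1 FPKM for Cenpp (Ippk). It was 0.218 FPKM for Ska2 (Gm11491) and 0.0666 FPKM for Cenpo (Adcy3).

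Of the CENP genes outside the inner kinetochore, 3 of 4 were higher, with a median of 0.24 (0.047 with the trend removed). Cenpf, a large protein of the outer kinetochore and nuclear matrix, was at 11.5, 11.2 and 14.8 FPKM in NC and 17.4, 16.5 and 13.9 FPKM in the mimic libraries. NC 3 and mimic 3 had crossed over, and the log2 fold change was 0.33 (SE 0.15, adjusted p = 0.399). It was 0.45 without NC 3 (adjusted p = 0.0314) and 0.04 with the trend removed. Cenpe, the kinesin that moves chromosomes to the spindle equator, was at 19.4, 18.5 and 22.6 FPKM in NC and 24.7, 23.5 and 21.7 FPKM in the mimic libraries. Here too NC 3 and mimic 3 crossed (log2 fold change 0.20, SE 0.12, adjusted p = 0.494), and the value was −0.06 with the trend removed. Cenpj, a centriole protein, averaged 1.64 ± 0.498 and 2.17 ± 0.325 FPKM, and Cenpv 6.05 ± 1.44 and 4.6 ± 0.627 FPKM (SD, n = 3).

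**Figure D4:**
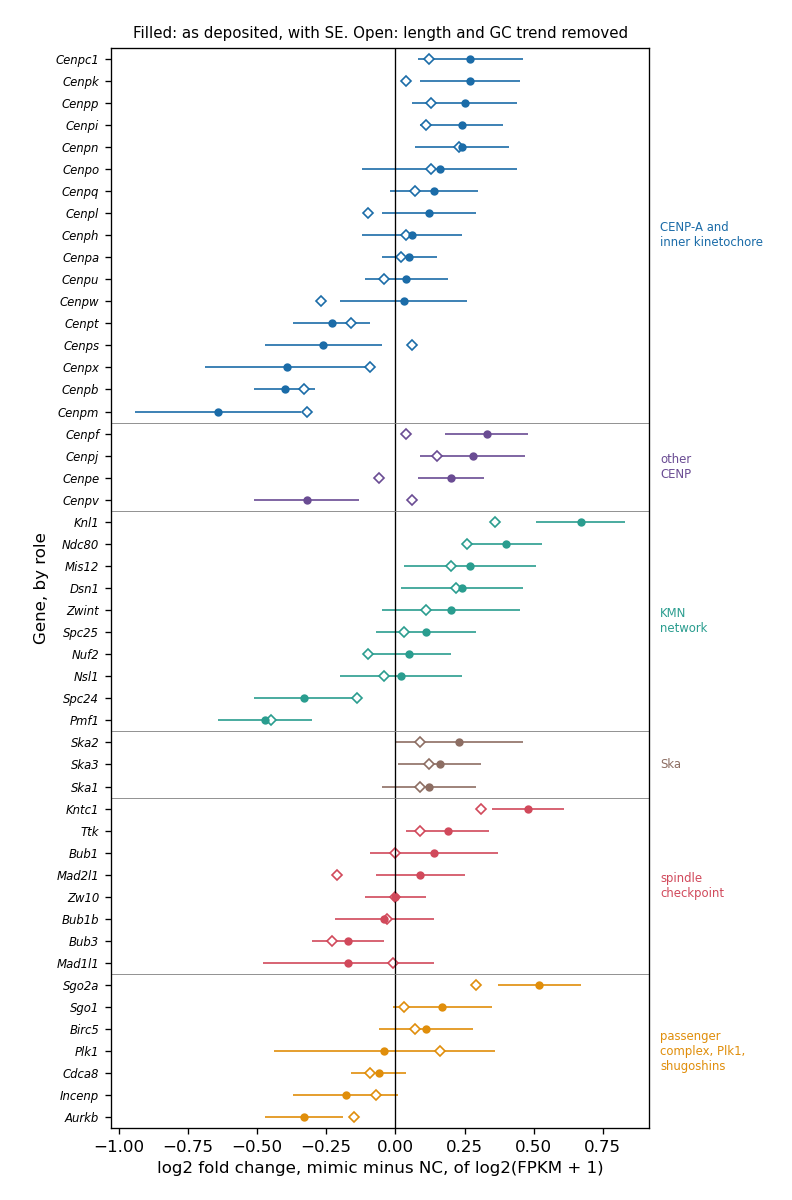
Log2 fold change of mimic minus NC for each of the 49 genes by role: filled points as deposited, with bars of 1 SE, and open diamonds with the length and GC trend removed. Most diamonds lie closer to 0 than their filled point (41 of 49), and Pmf1 is little moved, at −0.47 and −0.45.

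Sites for the seed of miR-125b-5p were looked for in each gene's longest 3′ UTR. This was the longest of any annotated transcript with a coding region, which need not be the main mRNA of the gene. Of the 49 genes, 9 held at least 1 (18.4%), beside 24.0% of the 9314 tested genes with a 3′ UTR, and the median UTR was 855 bases in the 49 and 1334 in all. Mad2l1 held the only 8mer, CTCAGGGA, at chr6:66542719-66542726 on the plus strand. Cenpb, Cenpf, Cenpl, Cenpo and Nuf2 held CTCAGGG (7mer-m8), and Dsn1, Mis12 and Ndc80 held TCAGGGA (7mer-A1). Mad2l1 also held a separate TCAGGGA, at chr6:66544434-66544440. For each of 3 genes described above, 1 site is printed with 10 bases on each side and the match in capitals (GRCm38, along the gene).
Mad2l1 8mer: gacttgaggcCTCAGGGActggggaggc
Cenpb 7mer-m8, chr2:131177851-131177857, minus strand: agtccctgggCTCAGGGcactggatgg
Ndc80 7mer-A1, chr17:71513044-71513050, minus strand: tctgaccacaTCAGGGAgctctaggtt
Of these 9 genes, Cenpb alone was lower in the mimic samples as deposited. The median log2 fold change of the 9 was 0.16, beside 0.082 for the members without a site. With the trend removed, Cenpb (−0.33), Mad2l1 (−0.21), Cenpl (−0.10) and Nuf2 (−0.10) were lower. Cenpf (0.04), Cenpo (0.13), Mis12 (0.20), Dsn1 (0.22) and Ndc80 (0.26) were higher. Medians of genes with and without a site were not taken over all genes. The Ndc80 site comes from an annotated UTR of 3575 bases, while the longest Ndc80 transcript has 3847 bases. That leaves little room for coding sequence, so the site may not lie in the mRNA that encodes the full protein. Which transcripts were expressed was not tested. A match of letters is not a measured target.

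Genes that work with the kinetochore were read from lists outside the rule, and 0 of them passed at adjusted p under 0.05. Without NC 3, 20 of the 77 tested passed, 11 higher and 9 lower. In that setting 11.6% of all genes passed as higher and 12.2% as lower. Over all lists together the counts lay near these shares and are no result particular to these genes. Single lists differed: 5 of 15 cohesin and separase genes passed as higher and 0 as lower. Of 8 condensin genes, 2 passed as higher and 1 as lower. Of 18 anaphase-promoting complex genes, 2 passed as higher and 4 as lower. These are small counts, and no test over a list was made. The CENP-A loading genes were 3 higher and 2 lower of 5 (median log2 fold change 0.098). Among them Oip5 was at 3.79, 2.61 and 3.52 FPKM in NC and 7.20, 6.54 and 4.13 FPKM in the mimic libraries. The groups did not overlap, with a log2 fold change of 0.67 (SE 0.21, adjusted p = 0.332). Its value with the trend removed was also 0.67.

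Checkpoint silencing and Rod partners were 9 higher and 4 lower of 13 (median 0.099, and 0.05 without NC 3). Mad2l1bp, which strips Mad2l1 from its complex, had −0.42 (SE 0.13, adjusted p = 0.332), and Spdl1, the dynein adaptor at kinetochores, 0.26 (SE 0.12, adjusted p = 0.386). The anaphase-promoting complex, the target of the checkpoint, was 8 higher and 10 lower of 18 (median −0.063, and 0.043 with the trend removed). Its catalytic RING subunit Anapc11 had −0.44 (SE 0.14) and its chain-extending partner Ube2s −0.38 (SE 0.13), each with groups that did not overlap. Without NC 3, Mad2l1bp (−0.45, adjusted p = 0.0492) and Anapc11 (−0.49, adjusted p = 0.0383) passed.

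Cohesin and separase genes were 12 higher and 3 lower of 15 (median 0.22, and 0.045 with the trend removed). Pds5b and Pds5a, cohesin release and maintenance factors, had 0.42 (SE 0.12) and 0.41 (SE 0.14). Without NC 3 both passed (adjusted p = 0.017 and 0.00721), and with the trend removed both had 0.14. Condensin genes were 6 higher and 2 lower of 8 (median 0.21, and 0.051 with the trend removed), with Ncapg and Ncapg2 both at 0.30 (SE 0.16) and overlapping groups. Ncapg passed without NC 3 (0.46, adjusted p = 0.0122) and had −0.03 with the trend removed. Mitotic entry and proliferation genes were 11 higher and 7 lower of 18 (median 0.063, and 0.01 without NC 3). Of these, Mki67 was at 64.7, 61.9 and 52.7 FPKM in NC and 81.1, 77.1 and 68.6 FPKM in the mimic libraries, without overlap (log2 fold change 0.34, SE 0.13, adjusted p = 0.346). It was 0.11 with the trend removed. Top2a had 0.24 (SE 0.14) with overlapping groups.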

How the data were processed

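Messenger RNA of 3 mimic and 3 NC samples was sequenced from total RNA with a SMARTer kit, per the labels' protocols. The authors deposited FPKM values for 16665 genes. Per the submitters' processing notes, fastp, HISAT2 and the build mm10 were used, and DESeq2 is also named there. Versions, the counter and its use of strand are not given there or in the labels. Symbols, positions, lengths and GC came from GENCODE M21 (GRCm38), which holds 16582 of the identifiers, and 83 were not matched. Whole fragments were recovered from the FPKM values: of values worth at most 20 fragments, 98.6% to 99.0% per library lay within 0.1 of a whole fragment. Intervals of counting error were not needed, since comparisons rest on the spread between samples.

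Genes with a mean of at least 1 FPKM were tested with limma 3.58.1 (R 4.3.3) two-sided, with its variance following a trend on the mean of log2(FPKM + 1). Adjustment was by Benjamini-Hochberg over all 10166 genes, and 0.05 was the threshold. Fold changes are differences of log2(FPKM + 1), mimic minus NC, so changes of low genes come out too small. SE is that of the moderated fit. Samples were grouped and numbered from their titles. Deviations from the group mean correlated between same-numbered samples at 0.287, 0.183 and 0.339, but NC 2 correlated most with mimic 1 (0.308). The labels do not state a pairing, so the replicate block was an alternative only. The members and lists were chosen with earlier results of these data known, so no test over a list was made and no p was adjusted over one. Every member is named. Values in each library with a fold change are given for the 10 members with the smallest p, the 2 with the highest mean level in each role group, and Cenpa, Ndc80, Bub1b, Mad2l1, Plk1 and Aurkb, and of each related list the 2 genes with the smallest p are named. Of these, 1 gene is not reported here. Values per library of Mis12, Dsn1, Sgo1, Mad1l1, Cenpt, Cenpc1, Cenpk and Cenpp were added after they were seen. The length and GC trend was removed by subtracting from each library a spline surface (5 degrees of freedom each) of its difference from the mean of all libraries, over 10128 genes with both measures. Alternatives were the pseudocount (0.1), no filter or a filter of 5 FPKM, quantile and median-of-ratios scaling, library weights, a replicate block, the trend removed, voom on recovered fragments, and each library left out. Leaving out NC 3 and mimic 3, with or without the trend, and joining the trend with the block were chosen after seeing the data.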

Additional observations from a re-analysis of the deposited data

How the results depend on the processing

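Of 49 members 0 passed the adjusted threshold, and of all genes 0. Both counts stayed at 0 with the other pseudocount, either filter, either scaling, the replicate block, the trend removed (with or without the replicate block) and voom. Without 1 library they ran from 0 to 16 members and from 0 to 2412 genes, and both highest counts came without NC 3. Array weights gave 30 members and 4808 genes. Removing the trend and NC 3 together left 1 member and 278 genes. Without both NC 3 and mimic 3, 30 members and 4377 genes passed, and 7 members and 1961 genes with the trend removed as well. The cause of these differences was not tested. The members' median ran from −0.029 (trend removed, NC 3 left out) to 0.24 (mimic 3 left out) and was 0.11 with the replicate block, which changed no other call than the unadjusted count of lower members.

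Directions of members under no call changed in places. With the trend removed, with or without the replicate block, Nuf2 had −0.10, Mad2l1 −0.21, Plk1 0.16 and Cenpe −0.062. In all, 7 members went from higher to lower, the others being Cenpw (−0.27), Cenpl (−0.10), Nsl1 (−0.04) and Cenpu (−0.04), and 3 from lower to higher, the others being Cenpv (0.06) and Cenps (0.06). Cenpv is among the members that passed as lower without NC 3. With the trend removed and NC 3 left out, 20 of the 49 were higher (40.8%, beside 48.7% of all genes) and 29 lower. Those that went from higher to lower included Ska2 (−0.057), Nuf2 (−0.30), Mad2l1 (−0.34), Cenpe (−0.10), Zwint (−0.21), Nsl1 (−0.21) and Cenpw (−0.25). Cenps went the other way, to 0.01. With the trend removed and NC 3 and mimic 3 left out, 29 were higher and 20 lower. Those that changed direction then included Nuf2 (−0.21), Mad2l1 (−0.21), Cenpe (−0.07), Plk1 (0.073), Spc24 (0.022), Cenpa (−0.0005) and Bub1b (0.00045). Without 1 library at a time the log2 fold change ran from −0.50 to 0.22 for Plk1, from −0.19 to 0.096 for Bub1b, from −0.0046 to 0.42 for Bub1 and from −0.043 to 0.15 for Nuf2. Genes of few fragments, such as Cenps, Cenpo and Mad1l1, are the ones that depth limits most.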
